A study of Mus musculus with 12 samples.

Results

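Tropomyosins and actin-binding adhesion proteins were followed through 10 genes, Tpm1, Tpm2, Tpm4, Vcl, Actn1, Pdlim1, Cnn3, Flna, Zyx and Myh9, in embryonic mouse brain with raised YAP or without Nf2. The genes are 10 of the 17097 that the arrays could name, and each was read through all probe sets (the array's units of measurement, each reporting a transcript) whose only gene symbol in the platform table was 1 of these 10. This gave 20 of the 45037 probe sets measured, 4 for Tpm2, 3 each for Tpm1 and Actn1, 2 each for Vcl, Cnn3 and Zyx, and 1 each for Tpm4, Pdlim1, Flna and Myh9. Where a gene is described by 1 value, it is that of the probe set whose mean across the 12 arrays was highest, called the brightest.

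The series held 12 arrays, 3 in each of 4 groups, all on a mixed genetic background. YAP overexpression embryos carried TetO-YAP1, a doxycycline-dependent YAP1-S127A allele, with Nes-rtTA, whose Nestin promoter drives the transactivator in neural progenitors. Their controls carried Nes-rtTA alone, and both groups gave forebrain with midbrain at E11.5, with doxycycline at 200 mg/kg in the dam's food from E7.5. Nf2 knockout embryos were Nf2F/F;Emx1-Cre and their controls Nf2F/+;Emx1-Cre, with dorsal telencephalon taken at E13.5. Both Nf2 groups thus carried the Cre, which acts in the telencephalon, and the controls lacked 1 copy of Nf2 in the cells it reaches, so they were not wild type. In bulk tissue such as this, a change in the share of a cell type and a change in RNA per cell cannot be told apart.

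Tropomyosins are coiled-coil proteins that lie along actin filaments and govern which myosins and other proteins can bind there. Vinculin, zyxin, alpha-actinin and filamin tie these filaments to integrin adhesions and cadherin junctions or to each other, and non-muscle myosin II pulls on them. YAP is a transcriptional co-activator held back by the Hippo kinases, and it is known to respond to tension on the actin cytoskeleton. Nf2 encodes Merlin, a membrane-linked protein that acts upstream of those kinases. In the developing brain the same proteins shape the apical junctions of neural progenitors, and in humans FLNA mutations cause periventricular heterotopia, in which neurons fail to leave the ventricular wall.

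The promoters of the 3 members that passed the test with YAP overexpression (Tpm1, Vcl and Pdlim1) are shown because members that rose together invite a look at their start sites. The sequences are from RefSeq (build GRCm38.p6), which held 1 entry for each of the 10 members, from 250 bases before to 50 after a start site of the gene, on the gene's own strand. That start site is the one the RefSeq promoter entry uses, and it is not always the outermost base of the gene: it lay 459 bases inside the annotated gene span for Tpm1, 15 for Vcl and 0 for Pdlim1, and 3320 for Flna and 317 for Zyx. Capitals mark matches to 3 motifs searched on both strands, GGAATG (the core bound by TEAD factors, the DNA-binding partners of YAP), TGANTCA (the AP-1 site) and the CArG box (bound by SRF, a factor known for driving actin cytoskeleton genes).
Tpm1, chr9:67049164-67049463, minus strand: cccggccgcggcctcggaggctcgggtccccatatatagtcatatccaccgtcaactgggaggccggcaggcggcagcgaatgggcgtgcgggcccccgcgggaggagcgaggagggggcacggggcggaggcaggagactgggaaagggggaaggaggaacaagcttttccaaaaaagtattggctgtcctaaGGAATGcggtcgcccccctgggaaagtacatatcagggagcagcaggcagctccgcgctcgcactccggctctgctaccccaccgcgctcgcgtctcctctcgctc
Vcl, chr14:20929148-20929447, plus strand: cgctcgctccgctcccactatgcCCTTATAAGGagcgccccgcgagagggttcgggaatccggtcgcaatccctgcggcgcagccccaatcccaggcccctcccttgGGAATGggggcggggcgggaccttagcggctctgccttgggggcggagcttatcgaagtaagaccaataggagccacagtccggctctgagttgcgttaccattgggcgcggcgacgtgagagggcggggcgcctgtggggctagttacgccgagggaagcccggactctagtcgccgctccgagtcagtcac
Pdlim1, chr19:40271567-40271866, minus strand: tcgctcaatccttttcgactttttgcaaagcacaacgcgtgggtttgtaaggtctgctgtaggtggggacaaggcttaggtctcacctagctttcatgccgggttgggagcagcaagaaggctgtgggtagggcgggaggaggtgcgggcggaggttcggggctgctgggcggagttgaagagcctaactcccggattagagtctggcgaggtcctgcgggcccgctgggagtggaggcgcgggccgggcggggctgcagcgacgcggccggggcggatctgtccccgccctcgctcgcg

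Relative to that start site, the Tpm1 window held GGAATG at -56. The Vcl window held GGAATG at -143 and a CArG box at -227, and the 2 matches do not overlap. The Pdlim1 window held none of the 3 motifs in these letters. Among the other members, GGAATG was found in the Flna window (as its reverse complement) and TGANTCA in the Zyx window. Of all 32851 RefSeq promoter windows, 14.7% held GGAATG, 7.81% TGANTCA and 1.63% the CArG box. A match describes the letters alone.

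Arrays within a group correlated with r of at least 0.993 over all probe sets. The medians of the 6 YAP arrays lay between 5.03 and 5.1 and those of the 6 Nf2 arrays between 4.3 and 4.42, so levels are compared only within an experiment. The labels number the arrays without saying that each came from a separate embryo, so the p-values rest on the spread among the arrays of a group, part of which may be technical. That spread was pooled over all 4 groups for each probe set, so the p-values of 1 experiment also depend on the arrays of the other. The targeted genes themselves were not called. Yap1 had 11.35, 11.23 and 11.33 with YAP overexpression, against 11.07, 10.99 and 11.05 in YAP controls, a difference of 0.27 (SE 0.08, adjusted p = 0.0957). Nf2 had 8.06, 8.27 and 8.11 in Nf2 knockouts, against 8.41, 8.66 and 8.51 in Nf2 controls, a difference of -0.38 (SE 0.10, adjusted p = 0.393). Both sets of groups were apart in the labelled direction, and whether these probe sets read the transgene or the deleted part was not analysed here. The YAP reporter genes Ccn2 and Ccn1 rose in both experiments, by 2.5 and 1.93 with YAP overexpression and by 2.03 and 1.02 with Nf2 knockout on the log2 scale. Of the 3 measured telencephalic marker genes and 6 neural progenitor genes, all lay above the array median on at least 1 array of each experiment, as did the midbrain genes En2 and Otx2 in the YAP tissue, while En1 and Pax5 lay below it there on all 6 arrays. Emx1, a telencephalic gene, lay above it on the 3 YAP controls but below it on the 3 overexpression arrays (4.79, 4.88 and 5, against medians of 5.03 to 5.07).

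With YAP overexpression at E11.5, Pdlim1 rose 3.04-fold, Tpm1 2.40-fold and Vcl 1.56-fold, and none of the other 7 members was called on its brightest probe set. A probe set was called at an adjusted p under 0.05 in limma over all 45037 probe sets, and only then is it said to have risen or fallen. Of the 20 member probe sets 5 rose and none fell in limma, where 1.48% of all probe sets were called higher and 2.3% lower. At an unadjusted p under 0.05 there were 10 higher and 0 lower, against 15.7% of all probe sets in either direction. Of the 10 genes, 3 rose and none fell, against 2.06% higher and 2.92% lower among all genes, and 7 of 10 had an unadjusted p under 0.05, all with a positive difference, against 18.6% of all genes in either direction. The median log2 change was 0.31 over the 10 genes and -0.01 over all 17097 genes. On the arrays of 6 of the 10 genes (Tpm1, Vcl, Actn1, Pdlim1, Zyx and Myh9) every overexpression value lay above every control value, which held for 9.72% of all genes; among probe sets this was so for 9 of 20, against 7.89% of all.

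With Nf2 knockout at E13.5, Pdlim1 rose 2.15-fold and Tpm1 2.05-fold, and no other member was called on its brightest probe set. Of the 20 probe sets 3 rose and none fell in limma, where 0.113% of all probe sets were called higher and 0.02% lower. At an unadjusted p under 0.05 there were 8 higher and 0 lower, against 5.25% of all probe sets in either direction. Of the 10 genes 2 rose and none fell, against 0.175% higher and 0.0351% lower among all genes, and 5 had an unadjusted p under 0.05 with a positive difference, against 5.81% of all genes in either direction. The median log2 change was 0.22 over the 10 genes and -0.0033 over all genes. Every knockout value lay above every control value for 8 of the 10 genes (all but Tpm2 and Myh9), which held for 6.6% of all genes; among probe sets this was so for 13 of 20, against 5.39% of all. Both Pdlim1 and Tpm1 were called higher in both experiments, as were 0.14% of all genes, and so were 3 of the 20 probe sets, against 0.0977% of all.

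**Figure D1:**
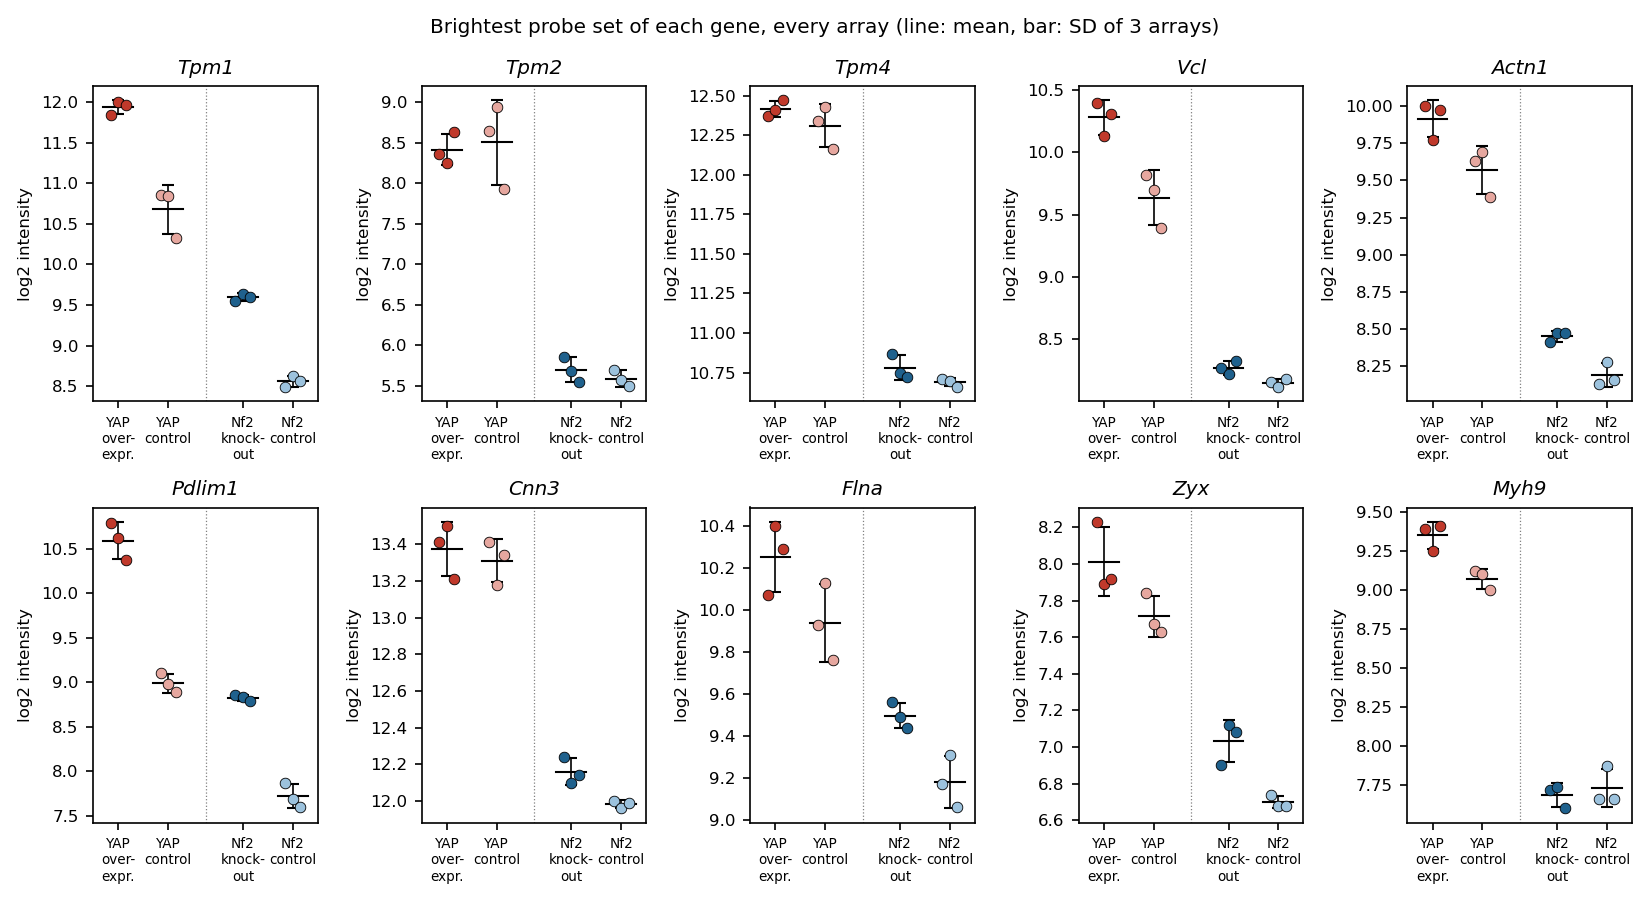
Log2 intensity of the brightest probe set of each of the 10 genes on every array (points), with the mean (line) and SD (bar) of the 3 arrays of a group. The experiments, left and right of the dotted line, differ in their array medians, so only groups beside each other are compared. Tpm1 and Pdlim1 show groups set apart in both.

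Tpm1, the alpha-tropomyosin gene, was called in both experiments. Its brightest probe set (1423049_PM_a_at) had log2 intensities of 11.84, 12 and 11.97 with YAP overexpression, against 10.86, 10.84 and 10.33 in YAP controls. It had 9.55, 9.64 and 9.60 in Nf2 knockouts, against 8.49, 8.63 and 8.56 in Nf2 controls. The groups lay far apart in both experiments, and the third YAP control was the lowest array of its experiment. The means were 11.94 (SD 0.09, n = 3) with overexpression and 10.68 (SD 0.30, n = 3) in YAP controls, a log2 change of 1.26 (SE 0.12, adjusted p = 0.000152). In the Nf2 experiment they were 9.60 (SD 0.05, n = 3) in knockouts and 8.56 (SD 0.07, n = 3) in controls, a change of 1.04 (SE 0.12, adjusted p = 0.00452).

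The other Tpm1 probe sets had changes of the same sign. Probe set 1456623_PM_at had 10.01, 10.02 and 9.67 with YAP overexpression, against 8.54, 8.57 and 7.85 in YAP controls, and it rose by 1.58 (SE 0.17, adjusted p = 0.000337). It had 8.11, 7.93 and 7.81 in Nf2 knockouts, against 6.74, 6.79 and 6.95 in Nf2 controls, and rose by 1.12 (SE 0.17, adjusted p = 0.0254). That call was lost with any 1 of the 6 Nf2 arrays left out, with log2 changes from 1.04 to 1.19 and the adjusted p from 0.0599 without knockout replicate 3 to 0.135 without control replicate 1. Probe set 1423721_PM_at had 10.81, 10.75 and 10.64 with YAP overexpression, against 9.92, 9.88 and 9.33 in YAP controls, a rise of 1.02 (SE 0.13, adjusted p = 0.00124). Its Nf2 values did not overlap either, at 8.60, 8.78 and 8.57 in knockouts against 7.93, 7.88 and 7.99 in controls, but the change of 0.72 (SE 0.13) was not called (adjusted p = 0.0884). It was called in 3 of 13 repeats of the limma fit under other settings, whose adjusted p ran from 0.0145 to 0.347. So in the main fit all 3 probe sets of Tpm1 passed with YAP overexpression and 2 of 3 with Nf2 knockout, with the same sign and groups apart in all 6 cases. Platform accessions differ between these probe sets, and which Tpm1 isoforms each one reports was not analysed here.

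Tpm2, the beta-tropomyosin gene, was not called on any of its 4 probe sets. Its brightest probe set (1419738_PM_a_at) had 8.37, 8.25 and 8.63 with YAP overexpression, against 8.65, 8.94 and 7.93 in YAP controls, so that the controls spanned both sides of the overexpression arrays. Nf2 knockouts read 5.86, 5.69 and 5.55, against 5.70, 5.57 and 5.5 in controls, with overlap again. The log2 changes were -0.09 (SE 0.20, adjusted p = 0.90) and 0.11 (SE 0.20, adjusted p = 0.996). Its other 3 probe sets ran from -0.22 to 0.14 with YAP overexpression and from 0.04 to 0.13 with Nf2 knockout, none called and all with overlapping groups. All 4 probe sets are thus split in sign with YAP overexpression, and 1419739_PM_at, the dimmest, lay above the array median on 1 of 6 YAP arrays and on none of the Nf2 arrays.

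Tpm4, a tropomyosin gene of non-muscle cells, stayed close to its controls on its single probe set (1433883_PM_at). It had 12.37, 12.41 and 12.47 with YAP overexpression, against 12.34, 12.43 and 12.16 in YAP controls. Nf2 knockout tissue gave 10.87, 10.75 and 10.72, against 10.71, 10.70 and 10.66 in controls. The Nf2 groups came close without overlap, and the YAP groups overlapped. The log2 changes were 0.11 (SE 0.08, adjusted p = 0.619) and 0.09 (SE 0.08, adjusted p = 0.996), and neither was called.

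Cnn3 encodes acidic calponin, an actin-binding protein of non-muscle cells, and was not called in either experiment. Its brightest probe set (1436836_PM_x_at) averaged 13.37 (SD 0.15, n = 3; lowest array 13.21) with YAP overexpression, against 13.31 (SD 0.12, n = 3; arrays at 13.41, 13.18 and 13.34) in YAP controls, with overlap. It had 12.24, 12.10 and 12.14 in Nf2 knockouts, against 12, 11.96 and 11.99 in Nf2 controls, and only there did the groups stand apart. The log2 changes were 0.06 (SE 0.09, adjusted p = 0.827) with YAP overexpression and 0.18 (SE 0.09, adjusted p = 0.996) with Nf2 knockout. The second probe set (1455570_PM_x_at) stood apart in both, at 12.34, 12.31 and 12.20 with YAP overexpression against 12.08, 12.15 and 12.12 in YAP controls, and at 11.49, 11.38 and 11.45 in Nf2 knockouts against 11.16, 11.25 and 11.17 in Nf2 controls. Its changes of 0.17 (SE 0.07, adjusted p = 0.288) and 0.25 (SE 0.07, adjusted p = 0.604) did not pass. The _x_at suffix marks sets in which some probes may match other genes.

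Vcl, the vinculin gene, whose product links talin and alpha-catenin to actin, rose with YAP overexpression. Its brightest probe set (1416156_PM_at) had 10.40, 10.13 and 10.31 with overexpression, against 9.82, 9.70 and 9.39 in YAP controls, a log2 change of 0.64 (SE 0.11, adjusted p = 0.00563). In a fit of these 6 arrays alone the adjusted p was 0.0545. In the Nf2 experiment the arrays read 8.27, 8.22 and 8.33 in knockouts, against 8.16, 8.12 and 8.18 in controls, narrowly apart, and the change of 0.12 (SE 0.11, adjusted p = 0.996) was not called. The YAP change exceeded the Nf2 change by 0.52 (SE 0.15), which was not called (adjusted p = 0.302). The second Vcl probe set (1416157_PM_at) lay below the array median on every array and was not called, with 0.25 (SE 0.12) for YAP and -0.03 (SE 0.12) for Nf2.

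Zyx encodes zyxin, a LIM-domain protein of focal adhesions and stress fibres. Its brightest probe set (1417240_PM_at) had 8.23, 7.89 and 7.92 with YAP overexpression, against 7.84, 7.67 and 7.63 in YAP controls. Knockouts of Nf2 had 6.90, 7.12 and 7.08, against 6.74, 6.68 and 6.68 in controls. The groups stood apart in both experiments with changes of similar size, 0.30 (SE 0.10, adjusted p = 0.155) and 0.33 (SE 0.10, adjusted p = 0.668), and neither was called. Its dimmer probe set (1438552_PM_x_at) differed by -0.0033 (SE 0.10) with YAP overexpression and by 0.14 (SE 0.10) with Nf2 knockout, so the YAP difference was not seen on both.

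Actn1 encodes alpha-actinin, which crosslinks actin filaments. Its brightest probe set (1428585_PM_at) had 10, 9.77 and 9.97 with YAP overexpression, against 9.63, 9.69 and 9.39 in YAP controls. The Nf2 knockout arrays gave 8.41, 8.47 and 8.47, against 8.13, 8.28 and 8.16 in controls. The groups were apart in both, and neither the YAP change of 0.34 (SE 0.10, adjusted p = 0.0726) nor the Nf2 change of 0.26 (SE 0.10, adjusted p = 0.831) was called. The YAP change lay near the threshold. It was called with 1 probe set per gene (adjusted p = 0.0467), without dim probe sets (0.0414), with trended and robust moderation (0.0232) and without overexpression replicate 2 (0.415 on the log2 scale, adjusted p = 0.0382). The other 2 probe sets differed by 0.20 and 0.04 with YAP overexpression and by 0.15 and 0.13 with Nf2 knockout, none called.

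Pdlim1 encodes a PDZ and LIM domain protein that binds alpha-actinin, and on the brightest probe sets it had the largest change of the 10 genes in both experiments. Its single probe set (1416554_PM_at) had 10.79, 10.62 and 10.37 with YAP overexpression, against 9.10, 8.98 and 8.89 in YAP controls. It had 8.86, 8.83 and 8.79 in Nf2 knockouts, against 7.87, 7.69 and 7.60 in Nf2 controls. Every manipulated array lay well above every control array in both experiments. The means were 10.59 (SD 0.21, n = 3) with overexpression and 8.99 (SD 0.11, n = 3) in YAP controls, a change of 1.6 (SE 0.11, adjusted p = 8.36e-06). In the Nf2 experiment they were 8.83 (SD 0.04, n = 3) in knockouts and 7.72 (SD 0.14, n = 3) in controls, a change of 1.11 (SE 0.11, adjusted p = 0.00163). Ranked by log2 rise among all 45037 probe sets, Pdlim1 stood at place 32 with YAP overexpression and at place 24 with Nf2 knockout. In the same order, the brightest Tpm1 probe set (1423049_PM_a_at) stood at places 61 and 29. Of the other Tpm1 probe sets, 1456623_PM_at stood at places 33 and 22 and 1423721_PM_at at 108 and 82.

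Flna encodes filamin A, a large crosslinker of actin filaments. Its probe set (1426677_PM_at) had 10.07, 10.40 and 10.29 with YAP overexpression, against 9.93, 10.13 and 9.76 in YAP controls, with overlap. The Nf2 knockout arrays read 9.56, 9.49 and 9.44, against 9.17, 9.31 and 9.06 in controls, without overlap. The changes were almost alike at 0.31 (SE 0.11, adjusted p = 0.177) and 0.32 (SE 0.11, adjusted p = 0.814), and neither was called.

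Myh9, the heavy chain gene of non-muscle myosin IIA, is the motor among the members. Its probe set (1417472_PM_at) had 9.39, 9.25 and 9.41 with YAP overexpression, against 9.12, 9.10 and 9 in YAP controls, without overlap. It had 7.72, 7.74 and 7.60 in Nf2 knockouts, against 7.66, 7.87 and 7.66 in Nf2 controls, with overlap. The changes of 0.28 (SE 0.09, adjusted p = 0.113) and -0.04 (SE 0.09, adjusted p = 0.996) were not called.

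**Figure D2:**
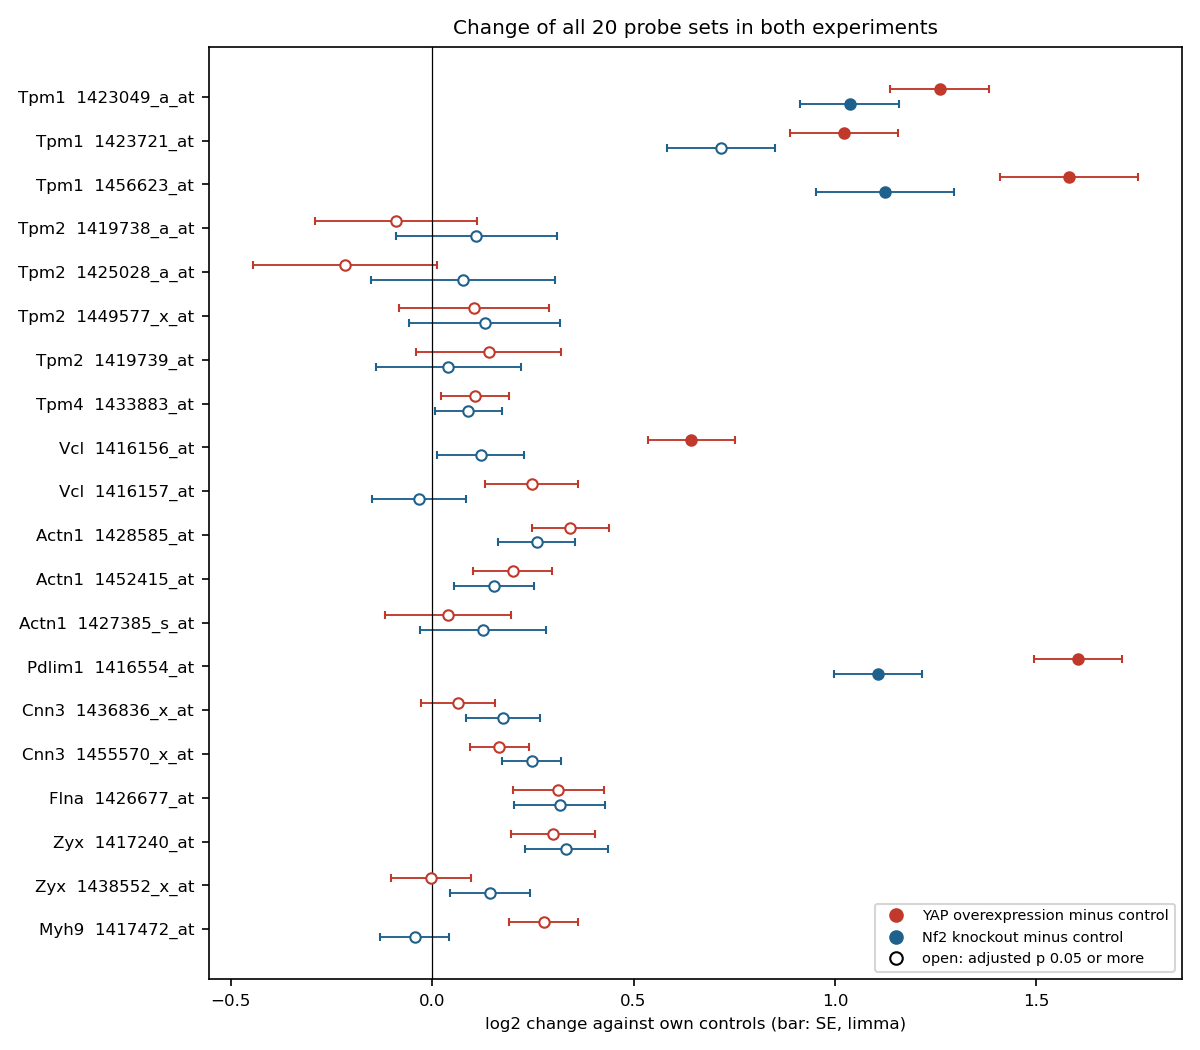
Log2 change (points) with its SE (bars) for each of the 20 member probe sets, YAP overexpression minus control above Nf2 knockout minus control, filled where the adjusted p was under 0.05. The 3 Tpm1 probe sets and Pdlim1 lie far to the right in both experiments, between 0.72 and 1.6, and the Tpm2 and Tpm4 probe sets lie within 0.22 of 0.

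Set side by side, 8 of the 10 genes had a positive change in both experiments (all but Tpm2 and Myh9), against 27.3% of all genes. For 5 of the 10 (Tpm1, Vcl, Actn1, Pdlim1 and Zyx) the manipulated arrays lay above the controls in both, against 1.79% of all genes. The experiments share no arrays. The members were chosen with earlier results of these data known. Their counts beside those of all genes, here and for each experiment, are therefore descriptions and not a test. The difference of the 2 effects was called for none of the 20 probe sets in limma, where 0.12% of all probe sets were called. At an unadjusted p under 0.05 there were 3 of the 20, against 8.27% of all probe sets. It was 0.50 (SE 0.16, adjusted p = 0.353) for Pdlim1 and 0.22 (SE 0.17, adjusted p = 0.802) for Tpm1 on the brightest probe set, and neither was called. Without the third YAP control the Tpm1 difference was 0.05 (adjusted p = 0.952). The manipulation, the age and the tissue differ together between the experiments and cannot be told apart.

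The third YAP control was the lowest of the 3 YAP controls for 9 of the 10 genes (all but Cnn3), as it was for 30.8% of all genes. Without it the YAP changes were 1.55 for Pdlim1 (adjusted p = 0.000123), 1.09 for Tpm1 (adjusted p = 0.000117) and 0.52 for Vcl (adjusted p = 0.0205), all still called. Actn1 was then 0.25 (adjusted p = 0.247), and Tpm2 was -0.38 (adjusted p = 0.238), a shift of over 1.5 times in a value that was not called in either fit.

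Markers of other cell types that make these proteins were set beside the members. With YAP overexpression, 12 genes of mesenchyme and pericytes had a mean log2 level from 7.41 to 7.47, against 7.35 to 7.78 in YAP controls, and none was called. Of the 12, 10 had a negative change, 2 of them at an unadjusted p under 0.05, against 18.6% of all genes in either direction. The third YAP control, lowest of the controls for 9 of the 10 members (Tpm1, Tpm2, Vcl and Pdlim1 among them), was also the lowest control for this list. Its list mean was 7.35, against 7.70 and 7.78 in the other controls, and the part of this in the members' values was not tested. Of 11 smooth and skeletal muscle genes, Tnnt1, a troponin T gene, rose (1.04, SE 0.21, adjusted p = 0.0172), the list's mean ran from 4.93 to 5.02 against 4.89 to 4.92 in controls, and 8 of the 11, Myog and Myod1 among them, lay below the array median on all 6 arrays. In the same order, overexpression arrays against controls, none of 10 endothelial genes (7.11 to 7.38 against 7.17 to 7.26 in controls), 8 microglial genes (5.95 to 6.24 against 6.11 to 6.30), 6 platelet genes (5.81 to 6.12 against 5.98 to 6.21), 6 erythroid genes (10.55 to 10.92 against 10.78 to 10.86) or 8 genes of surface ectoderm (4.84 to 5.04 against 4.92 to 5.22) was called. Below the median on all 6 arrays were Aif1, Gp9, Krt14, Trp63 and Cldn6.

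Several neuronal and telencephalic genes fell with YAP overexpression. Of 4 neuronal genes 3 fell (Tubb3, Stmn2 and Elavl4), Gap43 was not called (-0.38, adjusted p = 0.17), and the list's mean log2 level ran from 10.50 to 10.98, against 11.24 to 11.48 in YAP controls. All 3 telencephalic genes (Emx1, Emx2 and Lhx2) fell, with a mean from 8.33 to 8.43 with overexpression against 8.83 to 9.21 in controls. Of 6 neural progenitor genes 2 fell (Pax6 and Fabp7), with a mean from 10.50 to 10.83 with overexpression against 10.73 to 10.87 in controls. That list was split in sign, with 2 positive and 4 negative changes. Vim had a positive change with groups apart (0.27, SE 0.08, adjusted p = 0.0828) and Nes one with overlap (0.22, adjusted p = 0.435), neither called. Hes5 was not called either, with a negative change and groups apart (-0.55, SE 0.21, adjusted p = 0.219). Of 4 midbrain genes none was called, with a mean from 7.21 to 7.45 with overexpression against 7.33 to 7.44 in controls. The part of these shifts in the changes of Tpm1, Vcl and Pdlim1 was not tested.

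With Nf2 knockout no marker gene of any of these lists was called. Among all genes, 5.81% had an unadjusted p under 0.05 in either direction. Groups were apart upward for 1129 of the 17097 genes and downward for 1041. The mesenchymal list ran from 6.5 to 6.82 in knockouts, against 6.76 to 6.90 in Nf2 controls, and all 10 endothelial genes had a negative change, with a mean from 5.74 to 6.30 in knockouts against 6.26 to 6.41 in controls and 4 of the 10 at an unadjusted p under 0.05. All 8 microglial genes had a positive change, with a mean from 5.95 to 6.02 in knockouts against 5.68 to 5.74 in controls, and 2 of the 8 had an unadjusted p under 0.05. In knockouts against Nf2 controls, erythroid genes were at 7.82 to 7.94 against 8.11 to 8.27, with 5 of 6 negative and 3 of the 6 lower at an unadjusted p under 0.05. Muscle genes were at 3.67 to 3.79 against 3.64 to 3.72, with 9 of 11 below the array median on all 6 arrays. Platelet genes were at 4.89 to 5.12 against 4.99 to 5.15, ectodermal genes at 3.99 to 4.17 against 3.97 to 4.09, neuronal genes at 10.41 to 10.52 against 10.51 to 10.65, progenitor genes at 9.78 to 9.89 against 9.76 to 9.82, telencephalic genes at 9.42 to 9.52 against 9.49 to 9.61 and midbrain genes at 4.21 to 4.29 against 4.19 to 4.39. Of the 6 progenitor genes, Nes (0.36, SE 0.12) and Vim (0.30, SE 0.08) were higher at an unadjusted p under 0.05 and none was lower. On that list 3 genes had groups apart upward and 2, Fabp7 and Hes5, downward. The part of the microglial, endothelial, erythroid and progenitor shifts in the changes of Tpm1 and Pdlim1 was not tested.

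**Figure D3:**
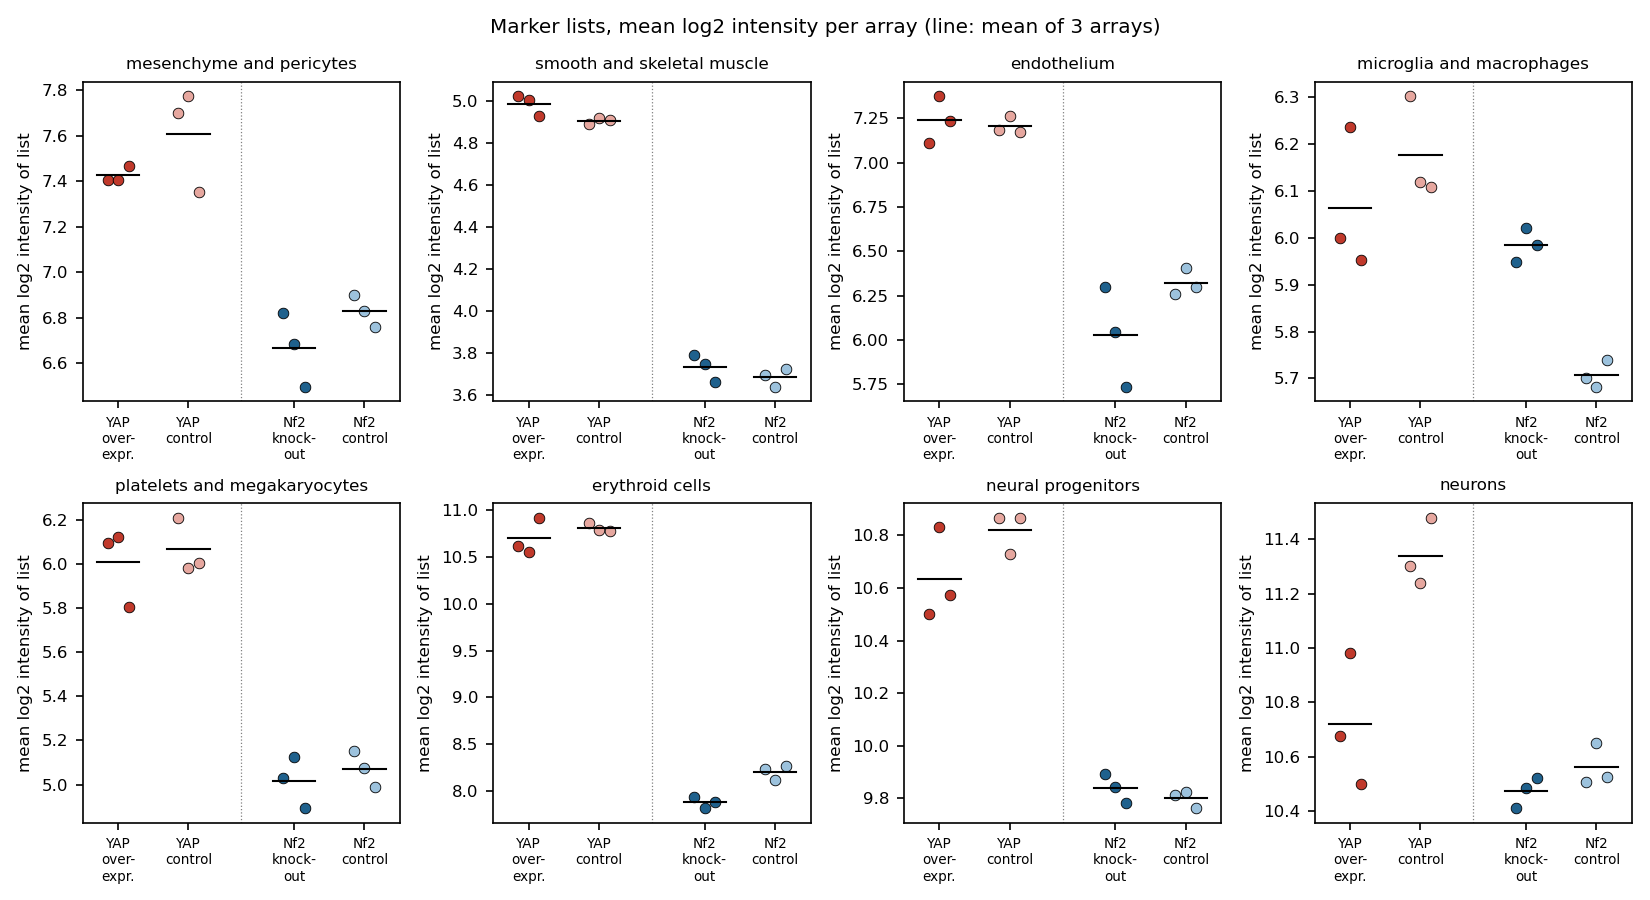
Mean log2 intensity of each marker list on every array (points) with the mean of the 3 arrays of a group (line), for 8 of the 11 lists. In the YAP experiment the mesenchymal list overlaps its controls and the neuronal list lies below them, and in the Nf2 experiment the microglial list lies above and the erythroid list below the controls.

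Beyond the members, 104 further genes of the actin and adhesion machinery were listed, of which 92 had a probe set of their own. With YAP overexpression 6 rose, 4 fell and 82 were not called, where 2.06% of all genes were called higher and 2.92% lower. At an unadjusted p under 0.05 there were 22 higher and 8 lower, against 18.6% of all genes in either direction. The list's median change was 0.08, against -0.01 over all genes. Every rise but those of Palld and Rhob was in a LIM-domain gene. Csrp1, which encodes a LIM protein of actin bundles, rose by 1.15 (SE 0.15, adjusted p = 0.00135), with 8.92, 9.44 and 9.03 with overexpression against 7.79, 7.99 and 8.15 in controls. Trip6, a zyxin relative at adhesions, rose by 0.96 (SE 0.07, adjusted p = 2.12e-05), with 10.47, 10.45 and 10.58 with overexpression against 9.57, 9.60 and 9.45 in controls. Pdlim7, a relative of Pdlim1, rose by 0.55 (SE 0.10, adjusted p = 0.00799), and Fhl1, made of LIM repeats, by 0.30 (SE 0.07, adjusted p = 0.0438).

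Palld, whose product palladin binds alpha-actinin, rose by 0.73 (SE 0.08, adjusted p = 0.000351), with 10.14, 10.11 and 9.99 with overexpression against 9.36, 9.29 and 9.41 in controls. Rhob rose by 0.57 (SE 0.10, adjusted p = 0.00564). The 4 that fell were Pdlim3, another PDZ and LIM gene (-1.17, SE 0.21, adjusted p = 0.00802), Tagln3, a calponin relative found in neurons (-0.94, SE 0.14, adjusted p = 0.0026), Tmod2, the neuronal tropomodulin that caps tropomyosin-coated filaments (-0.55, SE 0.11, adjusted p = 0.0159), and Pfn2, the brain profilin (-0.30, SE 0.07, adjusted p = 0.0413). Of the 4 neuronal markers 3 fell in the same arrays, and their part in these falls was not tested. Other probe sets of these genes did not always pass. The change ran from -0.55 to 0.14 over the 5 of Tmod2 (1 called), from 0.04 to 0.73 over the 3 of Palld (2 called) and from 0.10 to 0.30 over the 2 of Fhl1 (1 called). Both of Pfn2 were near -0.30, with 1 called. Fhl1, Pfn2 and Tmod2 lost their calls when 1 YAP array was left out. Fhl1 did so for each of the 6 arrays (adjusted p from 0.0695 to 0.143), Pfn2 for all but overexpression replicate 2 (0.0602 to 0.155) and Tmod2 for all but control replicate 1 and overexpression replicate 2 (0.0516 to 0.0639).

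By role, the 9 other thin-filament genes had none higher and 2 lower, the 6 actin genes none called with changes from -0.26 to 0.10, and the 10 crosslinkers 1 higher. None of 15 integrin-linked plaque genes, such as the talin and paxillin genes, was called, with a median of 0.08 and changes from -0.40 to 0.33. At an unadjusted p under 0.05, 5 of them were higher and 1 lower, against 18.6% of all genes in either direction. LIM and PDZ-LIM genes had 4 higher and 1 lower of 19, non-muscle myosin genes 0 of 7, filament turnover genes 1 lower of 14, and membrane linkers 0 of 4. Differences between these groups were not tested.

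With Nf2 knockout none of the 92 genes was called in limma, where 0.175% of all genes were called higher. At an unadjusted p under 0.05 there were 6 higher and 2 lower, against 5.81% of all genes in either direction. The lower ones included Nf2 itself. The smallest p-values were those of Palld (0.41, adjusted p = 0.112), Csrp1 (0.78, adjusted p = 0.12) and Trip6 (0.37, adjusted p = 0.125), the same genes that had risen with YAP overexpression. All 3 were called with trended and robust moderation, and Palld and Trip6 with array weights. The list's median change was 0.05.

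**Figure D4:**
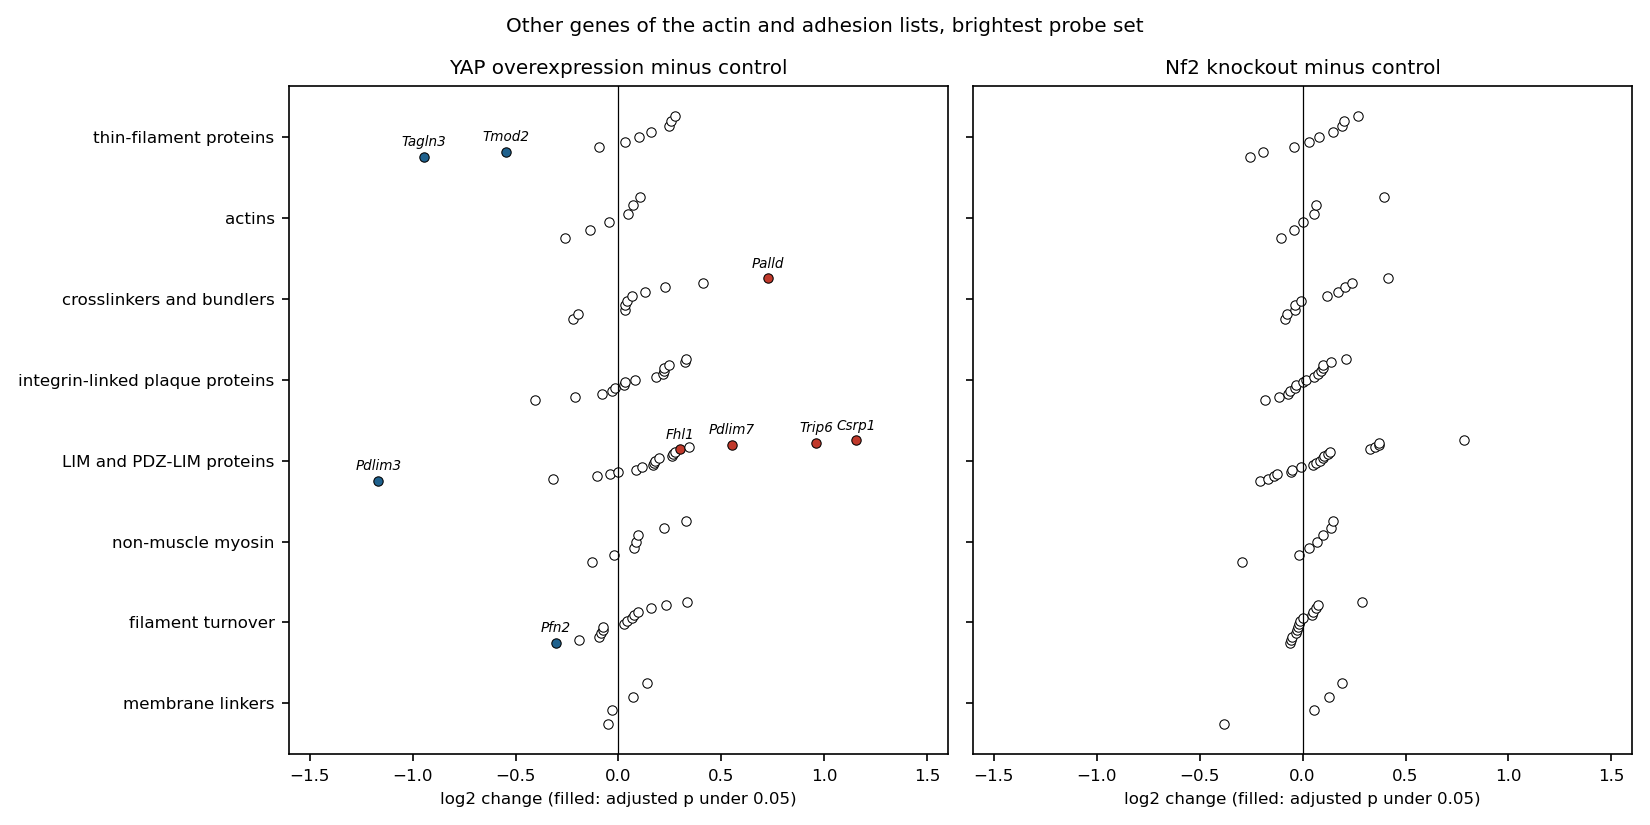
Log2 change of the brightest probe set of each of 84 other actin and adhesion genes in 8 roles, YAP overexpression minus control on the left and Nf2 knockout minus control on the right. Filled and named points had an adjusted p under 0.05, red higher and blue lower, 9 on the left and none on the right.

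The profiles most like that of Tpm1 were sought over the 12 arrays after subtracting each experiment's control mean, so that both group differences enter the likeness. Of the members, Pdlim1 correlated with it at r = 0.959 and Actn1 at 0.912, and Tpm2 at 0.139. Of all other genes, the 5 nearest (by any of their probe sets) were Klf6, a zinc finger factor gene, at 0.978, Ccn2 at 0.977, Pawr, an apoptosis regulator gene, at 0.973, Cldn12, a claudin gene, at 0.969 and Wwc2, a Hippo pathway scaffold gene, at 0.965. The YAP changes of these 5 were 0.58, 2.5, 1.02, 1.30 and 1.14, and their Nf2 changes 0.45, 2.03, 0.68, 0.96 and 0.95. Other probe sets of the same genes differed. Over all its probe sets the YAP change ran from -0.18 to 1.02 for Pawr (1 of 2 called), from 0.11 to 1.32 for Wwc2 (3 of 5) and from 0.27 to 0.62 for Klf6 (2 of 3), and the Nf2 change from 0.04 to 0.68, from -0.05 to 0.95 and from 0.18 to 0.45. These values describe shared arrays and the same 2 contrasts, and no test was made of them.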

How the data were processed

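The authors deposited 1 log2 intensity for each probe set and array. RMA, Affymetrix Expression Console 1.1 and Partek 6.5 are named, with no role, per the submitters' processing notes. A 3' IVT Express kit labelled 100 ng of Trizol-extracted RNA, per the labels' protocols. The platform's annotation named the genes, with 28898 probe sets of 1 gene, 551 of several and the rest unnamed here. Of the 28898, 28689 were given a current symbol through their Entrez ID in a RefSeq table, and 17097 genes resulted.

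In R 4.3.3, limma 3.58.1 fitted the 4 group means over 12 arrays and 45037 probe sets, with 8 residual and 4.622 prior degrees of freedom. Two-sided p-values were adjusted over all probe sets (Benjamini-Hochberg). The probe set of highest mean stood for its gene. SEs are those of this fit, in which a probe set has the same SE in both experiments. No exact permutation test was used, since 3 against 3 arrays allow no two-sided p under 0.1. On simulated data with 200 changed probe sets, 35.6% of those changed by 0.5 (log2) and 90.0% of those changed by 1 were recovered for the YAP comparison, and 37.0% and 89.4% for the Nf2 comparison, with 4.57% and 4.75% of calls false. Precision is limited by having 3 arrays a group.

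Equal replicate numbers paired the Nf2 arrays by the correlation of their deviations from the group means (0.296, 0.205 and 0.268), but not the YAP arrays (0.117, -0.141 and -0.147). Named were all 10 members, the called genes of the fixed actin and adhesion list and the 5 genes nearest to Tpm1. The marker lists covered mesenchyme and pericytes, muscle, endothelium, microglia, platelets, erythroid cells, surface ectoderm, neural progenitors, telencephalon, midbrain and neurons. Members and lists were chosen with earlier results of these data known. The alternatives were other scaling, a filter on dim probe sets, the replicate block, array weights, trended and robust moderation, each experiment alone, 1 probe set per gene and each array left out.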

Additional observations from a re-analysis of the deposited data

How the results depend on the processing

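Of 627 repeats for the 20 probe sets and the 5 tested differences of effects, 593 kept their direction and side of the threshold, 7 lost a call, 8 gained one and 19 changed sign, all 19 of values that were not called. The count of member probe sets called was 4 to 6 with YAP overexpression and 2 to 5 with Nf2 knockout (5 with trended and robust moderation), and the count of member genes 2 to 4 and 2. The replicate block changed no call of a member in either experiment; with it the Nf2 changes of Tpm1 (1423049_PM_a_at) and Pdlim1 had adjusted p = 0.029 and 0.00816, and 44 of all probe sets were called, 38 of them among the 60 of the main result. It took the YAP calls of Fhl1 (0.0838) and Pfn2 (0.104). Over all probe sets, the YAP count of 1704 was 648 with these 6 arrays alone and 784 to 2014 with 1 array left out (control replicates 1 and 3 left 999 and 784, overexpression replicates 1 and 3 left 1031 and 1052), and the Nf2 count of 60 was 21 to 32. Of the actin list, 6 genes were called with the 6 YAP arrays alone, and 2 with array weights and 3 with trended and robust moderation in the Nf2 experiment, against 0.

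Sign changes with YAP overexpression came with 1 array left out for Actn1 (1427385_PM_s_at, -0.12 to 0.20), Cnn3 (1436836_PM_x_at, -0.0017 to 0.15), Tpm2 (1419738_PM_a_at, -0.38 to 0.13; 1419739_PM_at, -0.10 to 0.37; 1449577_PM_x_at, -0.0333 to 0.30) and Zyx (1438552_PM_x_at, -0.11 to 0.06). The Zyx probe set also changed sign with array weights (0.0056), array medians subtracted (0.03) and quantile normalization (0.0406). In the Nf2 experiment they came for Myh9 (-0.0783 to 0.0267), Tpm2 (1419739_PM_at, -0.0033 to 0.12; 1449577_PM_x_at, -0.0433 to 0.26) and Vcl (1416157_PM_at, -0.10 to 0.03). The cause was not tested.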

Other observations

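Of the Pdlim genes measured, Pdlim1 and Pdlim7 rose with YAP overexpression and Pdlim3 fell, while Pdlim2 (0.11), Pdlim4 (0) and Pdlim5 (0.27) were not called. Pdlim3 had 5.53, 6.42 and 5.61 with overexpression, against 7.21, 6.72 and 7.13 in YAP controls. In the Nf2 experiment its arrays were barely apart the other way, at 4.11, 3.79 and 3.94 in knockouts against 3.39, 3.77 and 3.62 in controls. That change of 0.35 (SE 0.21) was not called. All 6 of these values lay below the array medians (4.3 to 4.42), so the probe set was dim in the Nf2 tissue. The difference of the 2 effects, -1.52 (SE 0.295), had an adjusted p of 0.0838, and with the 6 YAP arrays alone the fall had an adjusted p of 0.0526.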
